A study of Mus musculus with 24 samples.

Results

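The genes described here are 10 that are used to recognize brain pericytes, namely *Rgs5*, *Atp13a5*, *Vtn*, *Notch3*, *Kcnj8*, *Abcc9*, *Cspg4*, *Grm7*, *Plcl1* and *Anpep*. They are 10 of the 32288 genes counted in each of 24 single-nucleus libraries, and each was taken by its symbol. The genes were chosen with earlier results of these data known, and were selected on their measured levels, since the choice names their UMIs (unique molecular identifiers, one per captured RNA molecule) in whole libraries, in mural nuclei and in endothelial nuclei. Levels in those places are therefore given as a description without a test. Tests were made only on other cell classes, on genes outside the set and on numbers of nuclei. Whole libraries include the UMIs of those other classes, which hold most of the UMIs of some members. Tests of members in these classes are therefore not independent of the choice. The nuclei came from the deep brain (pallidum, thalamus and hypothalamus, midbrain and pons) and from the cortex (cerebral cortex with hippocampus) of 6 mutant and 6 control mice of the B6.Pdgfbtm3Cbet strain. Mutants were Pdgfb ret/ret, so that both copies of *Pdgfb* lacked the retention motif that holds PDGF-B near the endothelial cell that secretes it. Controls were Pdgfb ret/wt and so carried one such allele in every cell themselves. The allele is constitutive and not limited to a cell type. The mutants were all female and so were controls 1 to 5, whereas control 6 was male. The age at sampling was 5 months plus 0 to 18 days for numbers 1 to 3 in both genotypes, and 4 months plus 7 to 24 days for numbers 4 to 6. Each library came from one mouse and one region, and both regions of a mouse were sampled.

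Pericytes are mural cells embedded in the basement membrane of capillaries. Endothelial cells recruit them by secreting PDGF-B, which acts on the receptor PDGFRB on the pericyte, and loss of the retention motif is known to leave brain capillaries with sparse pericyte cover. No single gene defines a pericyte, and most genes in use are shared with smooth muscle cells, fibroblasts, glial precursors or neurons. *Kcnj8* and *Abcc9* encode the pore and the sulfonylurea receptor of a vascular ATP-sensitive potassium channel. *Rgs5* encodes a regulator that shortens G protein signaling, *Notch3* a Notch receptor of mural cells and *Grm7* a metabotropic glutamate receptor. *Vtn* encodes the matrix protein vitronectin, *Cspg4* a surface proteoglycan that also marks oligodendrocyte precursor cells (OPC), and *Anpep* the surface peptidase aminopeptidase N. *Atp13a5* encodes a P-type transport ATPase, and *Plcl1* a phospholipase C-like protein without catalytic activity.

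The genes differ widely in size, which matters for nuclear RNA, where intronic reads are counted. On the mouse genome GRCm38 with the GENCODE annotation, *Rgs5* (ENSMUSG00000026678) lies on chromosome 1 from 169655501 to 169695813. *Kcnj8* (ENSMUSG00000030247) and *Abcc9* (ENSMUSG00000030249) are neighbors on chromosome 6, from 142564837 to 142571614 and from 142587862 to 142702315. Both are read from the minus strand, with *Abcc9* upstream and 16247 bases between them. *Vtn* is the shortest gene of the set with 3.2 kb, of which 37.2% is intronic. *Grm7* is the longest with 921.6 kb, of which 99.4% is intronic, followed by *Plcl1* with 348.4 kb and *Atp13a5* with 146.9 kb. Levels are therefore compared between cell classes and groups for one gene at a time and not between genes.

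The sequences just before the starts of *Rgs5*, *Kcnj8* and *Abcc9* are shown because these 3 members had the lowest ratios of mutant to control mean in whole libraries of both regions. They were taken from RefSeq (GRCm38.p6), which held the start of all 10 members. Each covers the 250 bases before the start, 5′ to 3′ on the strand of the gene, at chr1:169655251-169655500 on the plus strand for *Rgs5*, chr6:142571615-142571864 on the minus strand for *Kcnj8* and chr6:142702275-142702524 on the minus strand for *Abcc9*. Capitals mark a match to the core TGGGAA that is bound by RBPJ, the DNA-binding partner of Notch receptors.
Rgs5: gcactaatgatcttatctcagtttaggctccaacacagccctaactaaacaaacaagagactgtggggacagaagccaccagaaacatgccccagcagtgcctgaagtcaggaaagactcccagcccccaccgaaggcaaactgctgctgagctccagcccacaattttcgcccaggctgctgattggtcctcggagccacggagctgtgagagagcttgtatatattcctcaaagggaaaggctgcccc
Kcnj8: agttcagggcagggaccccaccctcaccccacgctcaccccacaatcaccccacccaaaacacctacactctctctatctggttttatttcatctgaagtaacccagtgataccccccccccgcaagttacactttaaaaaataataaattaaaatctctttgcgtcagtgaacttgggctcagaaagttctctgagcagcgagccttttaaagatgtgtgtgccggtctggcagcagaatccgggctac
Abcc9: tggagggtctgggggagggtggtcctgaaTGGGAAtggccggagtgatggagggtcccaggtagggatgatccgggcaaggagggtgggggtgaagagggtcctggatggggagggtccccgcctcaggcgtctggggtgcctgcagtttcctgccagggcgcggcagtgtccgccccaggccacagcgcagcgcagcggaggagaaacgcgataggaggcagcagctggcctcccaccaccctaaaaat
Among these sequences, *Abcc9* had 1 such match, beginning 221 bases before the start, whereas *Rgs5* and *Kcnj8* had none on either strand. Of the other members, *Vtn* and *Grm7* had 1 match each, and 21.6% of the 32851 promoters of the same length held at least 1. No member had a match to the forkhead core TGTTTAC, which 3.2% of all promoters held, or to the CArG box of smooth muscle genes, which 1.5% held. Bases G and C made up 53.6% of the *Rgs5* sequence, 49.2% of that of *Kcnj8* and 66.8% of that of *Abcc9*.

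After the limits on genes and mitochondrial share stated by the study, 124958 nuclei of the deep brain and 79967 of the cortex were kept. Deep brain libraries held 64736053 to 96459036 UMIs, with a median of 3547 to 7314.5 per kept nucleus. Cortical libraries held 23625232 to 95605387 UMIs with medians of 804 to 8054, and 7 of the 12 (controls 1, 3 and 4, mutants 1 to 4) were below 1500. In the cortex 39449 nuclei stayed in unnamed clusters, 38857 of them in a single cluster led by mitochondrial genes. Doublet calls made up between 1.93% and 9.04% of the nuclei of a library, and no pair of libraries shared more than 220 barcodes (1.99% of the smaller one). Classes were formed without the 10 genes and named from other markers, so that the level of a member did not decide the class of a nucleus. This gave 171 mural and 689 endothelial nuclei in the deep brain, and 29 and 132 in the cortex.

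All 10 genes were detected in mural nuclei, and with both genotypes pooled 8 of them had their highest level there in both regions among 8 named classes. The exceptions were *Plcl1* and *Anpep*. Within a genotype, leaving aside the 3 cortical mural nuclei of mutants, this did not hold for *Grm7* in mutants of the deep brain, with 1137 CPM in mural nuclei and 2015 CPM in neurons, nor for *Rgs5* in controls of the cortex, with 1383 CPM in mural and 1618 CPM in endothelial nuclei. Pooled over the 171 deep brain mural nuclei, *Rgs5* reached 2348 CPM (UMIs of the gene scaled to a total of 1e6 UMIs of the class) and came next in endothelial nuclei with 794 CPM, while every neuronal and glial class stayed at or below 1.64 CPM. *Abcc9* had 1882 CPM in mural and 86.5 CPM in endothelial nuclei, and *Kcnj8* had 532 and 30.8 CPM. The fold above endothelial nuclei differed between genotypes, at 12.2 in controls and 79.6 in mutants for *Abcc9*, and at 8.55 and 88.1 for *Kcnj8*. In cortical controls these folds were 15.7 and 7.17. Those of deep brain mutants rest on only 19 *Abcc9* and 7 *Kcnj8* UMIs in endothelial nuclei. *Notch3* had 1233 CPM in mural and 59.5 CPM in endothelial nuclei, followed by astrocytes with 40.1 CPM. *Atp13a5* had 4927 CPM in mural nuclei and 186 CPM in fibroblasts, while in controls endothelial nuclei came next with 243 CPM, and *Vtn* had 4751 CPM, 8.35-fold above fibroblasts with 569 CPM. In the cortex, where only 29 mural nuclei were found, mural nuclei were again the highest class of these 6 genes with both genotypes pooled. For *Rgs5* the pooled 1381 CPM in mural and 879 CPM in endothelial nuclei joined endothelial levels of 1618 CPM in controls and 161 CPM in mutants. The 3 cortical mural nuclei of mutants held no *Kcnj8* UMI.

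The remaining members did not separate mural nuclei from the other classes in this way. *Cspg4* had 701 CPM in mural nuclei and 358 CPM in OPC of the deep brain, and 703 and 531 CPM in the cortex, so that mural nuclei were 1.96-fold and 1.32-fold higher. *Grm7* had 3190 CPM in mural nuclei of the deep brain and 2027 CPM in neurons, and in the cortex 2278 and 2193 CPM, which is 1.04-fold apart. *Plcl1* was higher in oligodendrocytes than in mural nuclei in both regions, with 5118 against 3847 CPM in the deep brain and 4450 against 3902 CPM in the cortex. *Anpep* had 200 CPM in mural nuclei and 136 CPM in fibroblasts of the deep brain, but in the cortex fibroblasts were higher with 157 against 145 CPM. With both genotypes pooled, *Atp13a5*, *Vtn*, *Notch3*, *Kcnj8* and *Abcc9* marked mural nuclei by level. No separate class of smooth muscle cells was formed, so whether these genes mark pericytes within the mural nuclei was not examined. *Rgs5* was shared by level with endothelial nuclei, above which mural nuclei of the deep brain stood 1.58-fold in controls and 9.30-fold in mutants. In cortical controls mural nuclei were lower, as given above, but 21 of those 26 mural nuclei came from control 5. Over both genotypes, 22.4% of deep brain and 16.7% of cortical endothelial nuclei held an *Rgs5* UMI, against 81.9% and 69.0% of mural nuclei. These data went against *Grm7*, *Plcl1*, *Cspg4* and *Anpep* as marks of one class.

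**Figure D1:**
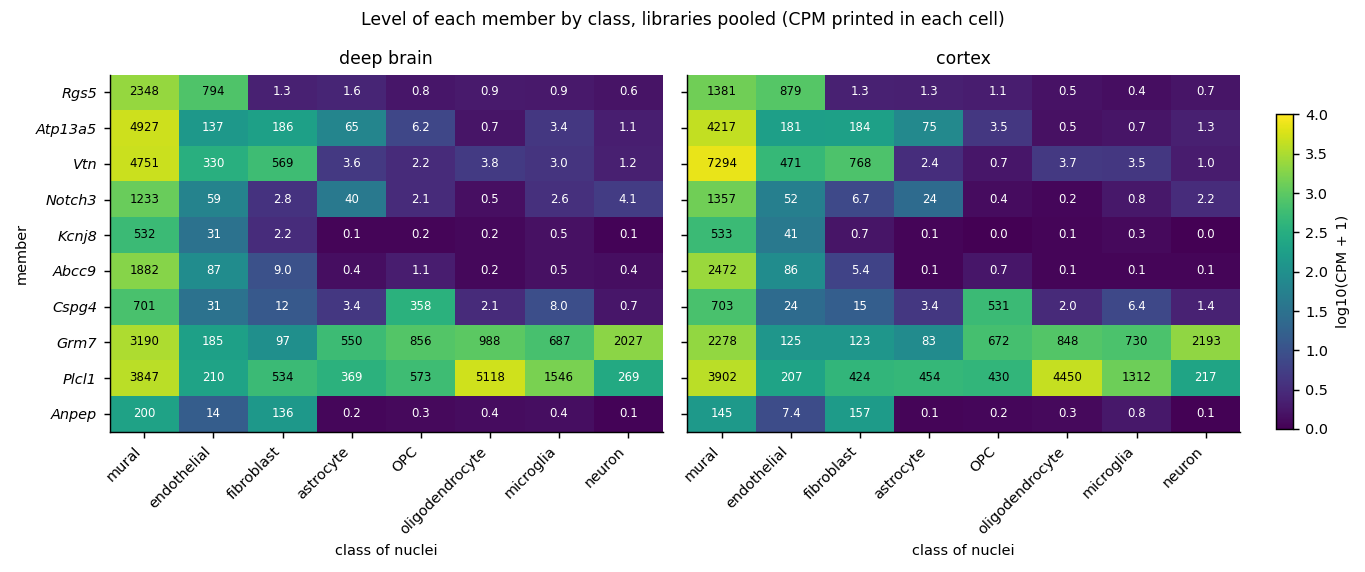
Level of each of the 10 genes (rows) in 8 named cell classes (columns) of the deep brain and the cortex, as CPM of all UMIs of the class pooled over libraries, printed in each cell and colored by log10 of CPM + 1. *Rgs5*, *Kcnj8* and *Abcc9* are high in mural nuclei and next highest in endothelial nuclei, whereas *Grm7* is also high in neurons and *Plcl1* in oligodendrocytes.

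Because mural nuclei were rare, much of the RNA of these genes was counted elsewhere. Mural nuclei were 0.137% of the nuclei kept from the deep brain. They held 38.4% of all *Kcnj8* UMIs, 38.3% of *Abcc9*, 19.2% of *Rgs5*, 16.8% of *Vtn* and 16.2% of *Atp13a5*. Endothelial nuclei held 46.9% of the *Rgs5* UMIs of the deep brain and 45.6% of those of the cortex. Astrocytes held 45.1% of *Atp13a5*, and neurons and astrocytes held 49.5% and 35.8% of *Notch3*. OPC held 86.3% of *Cspg4*, fibroblasts 63.1% of *Anpep* and 36.0% of *Vtn*, oligodendrocytes 61.6% of *Plcl1*, and neurons 90.2% of *Grm7*, of which mural nuclei held 0.0497%. No member had most of its UMIs in mural nuclei, and even *Atp13a5* and *Notch3* had more of them in astrocytes.

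Between genotypes, whole deep brain libraries of mutants held less *Rgs5* and *Abcc9* RNA than every control library. For *Rgs5* the 6 controls had a lowest level of 2.43, a median of 4.83 and a highest level of 6.70 CPM, and the 6 mutants had 0.873, 1.65 and 2.38 CPM. The means were 4.89 ± 1.48 and 1.65 ± 0.586 CPM (SD, n = 6 each), 2.95-fold apart, and control 4 lay just above the highest mutant. For *Abcc9* the controls had a lowest, median and highest level of 1.08, 1.87 and 2.76 CPM, and the mutants 0.508, 0.714 and 1.01 CPM. The means were 1.94 ± 0.607 and 0.720 ± 0.189 CPM, 2.70-fold apart. *Kcnj8*, its neighbor and channel partner, had 0.129, 0.545 and 0.816 CPM in controls and 0.063, 0.213 and 0.332 CPM in mutants, where only control 4 fell within the range of the mutants. In raw UMIs, *Rgs5* had 2346 in the 6 controls and 783 in the 6 mutants, and *Kcnj8* had 256 and 98. In such whole-library values fewer cells and less RNA per cell cannot be told apart, and mural nuclei made up only part of them. Mural nuclei held 403 *Rgs5* UMIs in controls and 197 in mutants. Endothelial nuclei held 1158 and 311, and unnamed vascular nuclei 305 and 79.

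The other 7 members overlapped between genotypes in the deep brain. *Vtn* had 8.21 ± 1.85 CPM in controls and 7.14 ± 2.09 in mutants, *Atp13a5* had 8.50 ± 1.44 and 8.12 ± 1.39, and *Notch3* had 6.58 ± 1.21 and 6.32 ± 0.384. *Cspg4* had 12.6 ± 1.11 and 10.6 ± 2.03 CPM and *Grm7* 1792 ± 134 and 1711 ± 157 CPM, while *Plcl1* and *Anpep* had the higher mean in mutants, at 810 ± 107 against 757 ± 126 and at 1.16 ± 0.174 against 0.992 ± 0.292. In all, 8 of the 10 members had a lower mean in mutants and 2 had all mutants below all controls. Of 21549 genes with enough UMIs in the deep brain, 0.501% had all mutants lower in this way and 1.02% had all mutants higher. The members were chosen with such values in view, so nothing is read from their count.

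In the cortex the channel genes and *Rgs5* were again lower in mutants. *Kcnj8* had a lowest, median and highest level of 0.0823, 0.441 and 0.710 CPM in controls, and the mutants had none in 4 libraries, 0.0585 CPM in mutant 6 and 0.0656 CPM in mutant 4. That is 83 UMIs in the 6 controls and 6 UMIs in the 6 mutants, and all mutants lay below all controls. With so few UMIs the gap between the lowest control and mutant 4 is narrow. In mutants 2 and 3, the libraries without a UMI that had the fewest UMIs of all genes in kept nuclei (22291100 and 16227618), a level like that of the lowest control is not excluded. The share of genes with all mutants lower in the cortex was 0.364% of 19775. That set was limited to genes with at least 100 UMIs, which the 83 and 6 of *Kcnj8* together do not reach. *Rgs5* had a mean of 3.72 ± 2.04 CPM in controls and 0.782 ± 0.502 in mutants, and *Abcc9* had 1.27 ± 1.15 and 0.175 ± 0.0941 CPM, with overlap in both genes because control 2 was low (0.913 CPM of *Rgs5* and 0.261 CPM of *Abcc9*). *Vtn* had 12.9 ± 6.81 CPM in controls and 6.45 ± 2.23 in mutants, and *Notch3* 3.07 ± 0.623 and 2.05 ± 0.385. *Plcl1* went the other way, with 336, 389 and 403 CPM as lowest, median and highest of the controls and 415, 510 and 607 CPM of the mutants, which do not overlap (background 0.546% of genes higher). In the 5 cortical libraries of higher depth (controls 2, 5 and 6, mutants 5 and 6), *Kcnj8*, *Rgs5*, *Abcc9* and *Vtn* kept the lower mean in mutants, whereas *Atp13a5* turned to a mean that was higher by 0.535 CPM in mutants.

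**Figure D2:**
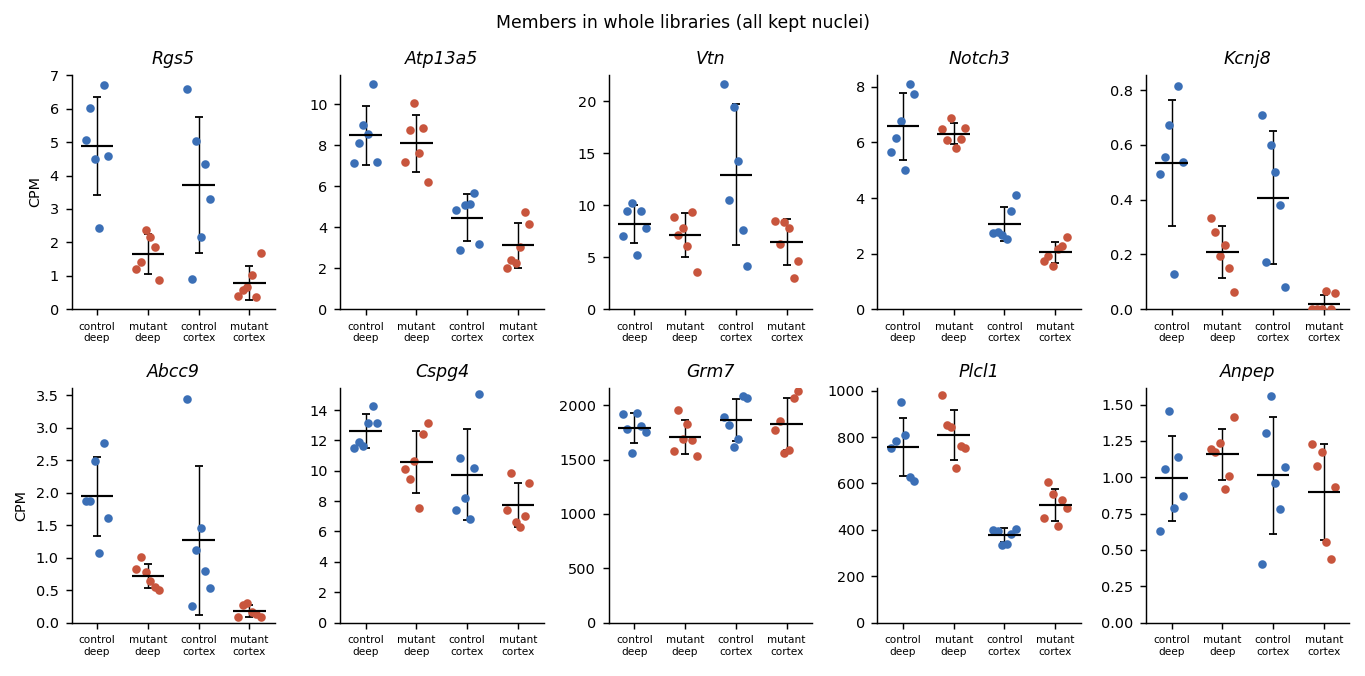
CPM of each of the 10 genes in whole libraries, with 1 point per library, by region and genotype, with a bar at the mean and whiskers of 1 SD in each group (n = 6). *Rgs5* and *Abcc9* of the deep brain and *Kcnj8* of the cortex have all mutant points below all control points, and cortical *Plcl1* has all mutant points above.

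Among control libraries, *Atp13a5*, *Notch3* and *Plcl1* were higher in every deep brain library than in every cortical one. The mean of *Atp13a5* was 8.50 CPM in the deep brain and 4.48 in the cortex (1.90-fold), that of *Notch3* 6.58 and 3.07 (2.15-fold) and that of *Plcl1* 757 and 376 (2.01-fold). Of 20780 genes with enough UMIs in control libraries, 15.1% were higher in every deep brain library and 4.81% were lower in every one. The other 7 members overlapped between regions. Among them *Vtn* had the highest ratio of cortical to deep brain mean, at 12.9 ± 6.81 against 8.21 ± 1.85 CPM (SD, n = 6 each). Its cortical range of 4.20 to 21.6 CPM enclosed that of the deep brain, 5.27 to 10.2 CPM. Over both genotypes, the 39449 unnamed nuclei of the cortex held 1082 *Vtn* UMIs (25.7 CPM) and the 936 of the deep brain held 11 (2.20 CPM).

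To ask how many of the cells that carry these genes were sampled, mural nuclei were counted in each library. In the deep brain they made up 0.183% to 0.277% of the nuclei of a control library (median 0.219%) and 0.00915% to 0.0837% of a mutant library (median 0.0688%), so that the groups did not overlap. The means were 0.219% ± 0.0323 and 0.0603% ± 0.0280 (SD, n = 6 each), 3.63-fold apart (exact permutation test, two-sided, p = 0.00216, the smallest that 6 against 6 mice allow). Control mice 1 to 6 gave 26, 20, 21, 15, 25 and 25 mural nuclei and mutant mice 1 to 6 gave 7, 5, 8, 10, 8 and 1, that is 132 and 39 in all. Endothelial nuclei numbered 352 in controls and 337 in mutants. Per endothelial nucleus there were 0.400 ± 0.129 mural nuclei in controls and 0.110 ± 0.0410 in mutants, 3.64-fold apart and without overlap (exact permutation test, two-sided, p = 0.00216). Both differences had the same direction and stayed past the threshold when any one library was left out. Nuclei grouped with the vascular ones that stayed unnamed numbered 276 in controls and 354 in mutants of the deep brain. Over both regions 395 such nuclei formed a cluster led by neuronal markers, 166 one of astrocyte markers and 141 one of oligodendrocyte markers. A cluster of 75, led by the smooth muscle genes *Acta2* and *Myh11*, held 9 mural and 8 microglial markers and was not counted as mural. Of these 75, 26 came from controls and 30 from mutants of the deep brain. With them counted as mural, in an alternative added after the data were seen, the shares in the deep brain were 0.262% ± 0.0637 in controls and 0.108% ± 0.0363 in mutants, still without overlap (exact permutation test, two-sided, p = 0.00216). Per endothelial nucleus there were then 0.466 ± 0.113 and 0.216 ± 0.0442 (exact permutation test, two-sided, p = 0.00216). That is a difference of -0.251, beside -0.290 without these nuclei.

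Mural nuclei were too few in the cortex for a firm count. Controls 1 to 6 gave 1, 1, 1, 2, 21 and 0 and mutants 1 to 6 gave 0, 0, 0, 0, 2 and 1, so that control 5 held 21 of the 26 control nuclei. The share was 0.0508% ± 0.0693 in controls and 0.00557% ± 0.00874 in mutants, with overlap (exact permutation test, two-sided, p = 0.0325). The call was lost without any of 8 libraries (controls 1, 2, 4 and 5, mutants 1 to 4). Without control 5 the difference shrank from -0.0453 to -0.0175 percentage points with p = 0.0649, and in the 5 libraries of higher depth it was -0.0583 with p = 0.600 (exact permutation tests, two-sided). A count of 0 in the 9277 nuclei of mutant 1 allows a share of up to 0.0323% (3 counts of the total), for counting error only. Per endothelial nucleus there were 0.245 ± 0.235 mural nuclei in controls and 0.0214 ± 0.0362 in mutants (exact permutation test, two-sided, p = 0.0173). With the replicate number as a block, neither cortical difference passed (exact sign-flip permutation tests, two-sided, p = 0.0625 for each). With the nuclei of mixed markers counted as mural, 13 from controls and 6 from mutants, neither cortical difference passed the threshold (exact permutation tests, two-sided, p = 0.199 for the share and p = 0.459 per endothelial nucleus).

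**Figure D3:**
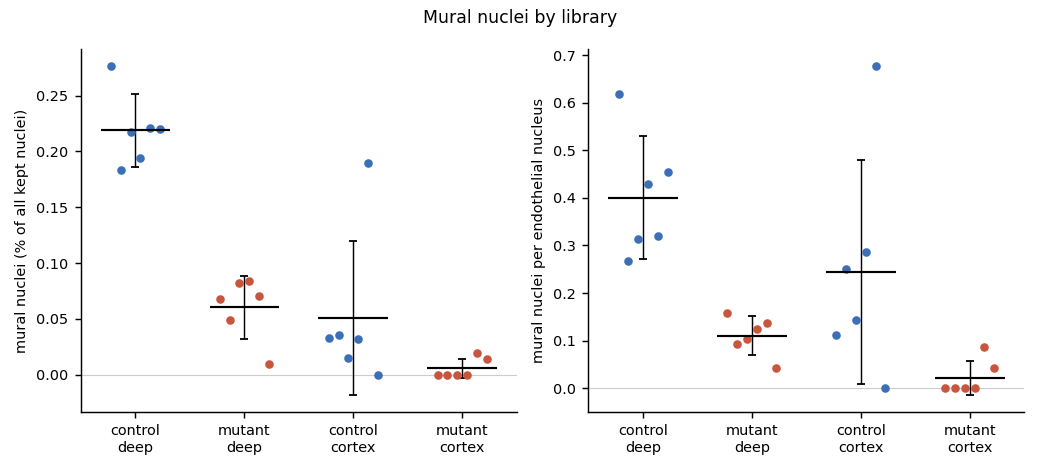
Mural nuclei as percent of all kept nuclei (left) and per endothelial nucleus (right), with 1 point per library, a bar at the mean and whiskers of 1 SD in each group (n = 6). In the deep brain every mutant lies below every control, and in the cortex control 5 stands apart at 0.189%.

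Within mural nuclei of the deep brain, the members did not move together. Levels were taken as CPM of the summed mural nuclei of a library, for the 6 controls and for mutants 1 to 5, since mutant 6 had only 1 mural nucleus. *Grm7* had a lowest, median and highest level of 2678, 4191 and 5583 CPM in controls, and mutants 1 to 5 had 570, 427, 1443, 1629 and 1475 CPM. All 5 mutants lay below all controls. The single nucleus of mutant 6 had 332 CPM, but held only 3010 UMIs of all genes, with endothelial markers at 3987 CPM. In all, deep brain mural nuclei held 738 *Grm7* UMIs in controls and 77 in mutants. *Atp13a5* had 4948, 5563 and 6456 CPM in controls and 3546, 1994, 4584, 3560 and 2139 CPM in mutants 1 to 5, again without overlap. The means were 4042 ± 1201 and 1109 ± 564 CPM for *Grm7* and 5598 ± 507 and 3165 ± 1089 CPM for *Atp13a5*. Fitted over all 229 genes tested, the log2 difference (mutant minus control) was -1.69 (SE 0.29) for *Grm7* and -0.70 (SE 0.21) for *Atp13a5*, given as a description. Of these 229 genes 2.62% had all mutants lower and 2.62% had all mutants higher.

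*Rgs5*, which had the lowest ratio of mutant to control mean in whole libraries of the deep brain, had the higher mean in mutants within mural nuclei, with overlap. Controls had a lowest, median and highest level of 1071, 2133 and 3076 CPM, and mutants 1 to 5 had 3736, 3561, 1019, 2595 and 2877 CPM, with means of 2147 ± 810 and 2757 ± 1080. *Vtn* had 4445 ± 1121 CPM in controls and 5660 ± 2465 in mutants, *Kcnj8* had a median of 440.4 CPM (48.5 to 798) and of 664 (424 to 855), and *Notch3* had 1203 ± 222 and 1304 ± 143. *Abcc9* had 1967 ± 422 and 1634 ± 901 CPM, *Cspg4* 749 ± 120 and 510 ± 274, *Plcl1* 4270 ± 1245 and 2792 ± 1429, and *Anpep* 185 ± 45.6 and 211 ± 121 CPM. These 8 members overlapped between genotypes, and 5 of the 10 had the lower mean in mutants. Markers of smooth muscle cells, the mural cells of arterioles, moved with the genotype in the same nuclei: their sum was 1157 ± 240 CPM in controls (873 to 1456) and 2803 ± 365 in mutants (2421 to 3229). The marker list used to name mural cells summed to 11759 ± 1079 and 11212 ± 1042 CPM, and that of endothelial cells to 310 ± 157 and 475 ± 595. Pooled over libraries, astrocyte markers summed to 6198 CPM in controls and 4488 in mutants, and choroid plexus markers to 304 and 133. Neuronal markers summed to 2199 and 2037 CPM, while oligodendrocyte markers (1922 and 2126) and OPC markers (256 and 517) were higher in mutants. The part of these markers in the levels of the members was not tested. In the cortex a level per library could be taken in control 5 only, which had 1189 CPM of *Rgs5*, 440 of *Kcnj8*, 1365 of *Abcc9* and 3698 of *Atp13a5*.

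Genes of the same biology outside the set were tested in these mural nuclei with edgeR's quasi-likelihood test. Of those tested, *Pdgfrb*, *Higd1b*, *Slc38a11*, *Art3*, *Slc6a20a*, *Ebf1*, *Carmn* and *Mrvi1* were also on the marker lists used to name mural nuclei. The naming limits how far such genes could differ within the class, so a lack of calls among them decides nothing about their loss. Of 27 other pericyte genes 9 could be tested and 0 passed an adjusted p of 0.05 in edgeR, with 1 at an unadjusted p below 0.05 and 0 called by DESeq2. Their median log2 difference was -0.03, beside -0.02 over all 229 genes, of which 10.0% were called. Named by UMIs in the class, *Dlc1* had a log2 difference of -0.37 (SE 0.21), the transcription factor *Ebf1* 0.04 (SE 0.24), the receptor gene *Pdgfrb* -0.19 (SE 0.31) and the transporter *Slc6a20a* -0.70 (SE 0.27, edgeR adjusted p = 0.0955). Of 19 smooth muscle genes 5 were tested with a median of 0.21, and *Mrvi1*, which encodes a substrate of cGMP-dependent kinase, rose by 1.13 (SE 0.35, edgeR adjusted p = 0.0318). The call held without control 4 (edgeR adjusted p = 0.0421) or mutant 3 (0.0462) and was lost without any of 8 others (controls 1, 2, 5 and 6, mutants 1, 2, 4 and 5), at edgeR adjusted p of 0.0553 to 0.156. In the fit that left out control 3, only 4 smooth muscle genes could be tested and 0 were called. The *Mrvi1* call was also lost with the replicate number (edgeR adjusted p = 0.0718) or the age (0.109) as a block, without doublets (0.0780), with clusters formed with the members (0.0785) and without the filter on low counts (0.619). Without that filter, which moved the median of all genes to -0.62, edgeR called 5 other genes of these lists, *Dlc1*, *Slc6a20a* and *Trpc4* as lower and *Myh11* and *Acta2* as higher. Of 17 Notch pathway genes only *Maml2*, a coactivator, could be tested (-0.12, SE 0.36). The next by UMIs, *Maml3*, the receptor *Notch1* and the target *Hey2*, had 348, 243 and 215 CPM pooled over genotypes and were below the limit for the test.

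In endothelial nuclei of the deep brain all 10 members had a lower mean in mutants, and *Rgs5* had no overlap. Controls 1 to 6 had 2155, 1294, 780, 904, 1272 and 1753 CPM of *Rgs5*, and mutants 1 to 6 had 50.0, 45, 437, 385, 442 and 244 CPM. The means were 1359 ± 518 and 267 ± 185 CPM, 5.09-fold apart. Few nuclei carried much of this RNA, as 33 of 352 control nuclei held 720 of 1158 *Rgs5* UMIs and 11 of 337 mutant nuclei held 140 of 311, namely the nuclei with UMIs of at least 3 of 6 members (*Rgs5*, *Atp13a5*, *Vtn*, *Notch3*, *Kcnj8* and *Abcc9*). The other endothelial nuclei held 438 *Rgs5* UMIs in controls (676 CPM) and 171 in mutants (185 CPM). Since *Rgs5* is itself one of the 6, the split enriches the first nuclei in it and depletes the others. It therefore cannot decide in which nuclei the difference lies. Of 3715 genes tested in endothelial nuclei 0.565% had all mutants lower and 0.592% had all mutants higher, and edgeR called 1.05% at an adjusted p of 0.05. *Abcc9* had a lowest, median and highest level of 25.1, 161 and 290 CPM in controls and 0, 12.0 and 53.0 in mutants, and *Kcnj8* had 12.5, 55.8 and 113 CPM in controls and 0, 0 and 22.1 in mutants. *Atp13a5* had 228 ± 156 CPM in controls and 37.8 ± 34.8 in mutants, *Vtn* 484 ± 317 and 143 ± 190, *Notch3* 75.5 ± 52.6 and 33.3 ± 34.3, and *Grm7* 269 ± 151 and 96.0 ± 19.8. Control 4 had the lowest control value in 9 of the 10 members, all except *Rgs5*. Endothelial markers summed to 21703 ± 2604 CPM in controls and 22733 ± 2316 in mutants, and the markers of mural cells to 2347 ± 295 and 1970 ± 361 CPM. The 6 markers of choroid plexus summed to between 14.9 and 3759 CPM in controls (median 194) and between 22.1 and 250 CPM in mutants (median 96.5), with 622 of their 673 control UMIs from *Ttr* and *Otx2* at 0 in mutants. The highest value was that of control 1, the control with the highest *Rgs5*, and the lowest that of control 6, which had the next highest *Rgs5*. Without control 1 the *Rgs5* ranges did not overlap either. The part of these transcripts in the levels of the members was not tested.

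In the cortex 5 control and 3 mutant libraries held at least 5 endothelial nuclei. *Rgs5* had 1395 ± 807 CPM in those controls and 133 ± 230 in those mutants, with overlap. Endothelial markers summed to 21509 ± 2471 CPM in these controls and 28999 ± 3708 in these mutants, and mural markers to 2532 ± 1402 and 1584 ± 249. Their part in the levels of the members was not tested. No member was without overlap there, and the background was 3.52% of genes with all mutants lower, 6.13% with all mutants higher and 1.8% called by edgeR at an adjusted p of 0.05. *Atp13a5*, *Notch3*, *Kcnj8*, *Abcc9* and *Cspg4* had 0 UMIs in the 67 endothelial nuclei of all mutants, against 97, 28, 22, 46 and 13 UMIs in the 65 of the controls. These UMIs lay in few nuclei. Over both genotypes 5.30% of the 132 cortical endothelial nuclei held a UMI of *Atp13a5*, and 7.58% one of *Abcc9*. The share was 5.30% for *Notch3*, *Kcnj8* and *Cspg4* too. At least 3 of the 6 members named above were found in 9 of the 65 control nuclei and in 0 of the 67 mutant ones. The plot of both vascular classes shows the values of the deep brain by library.

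**Figure D4:**
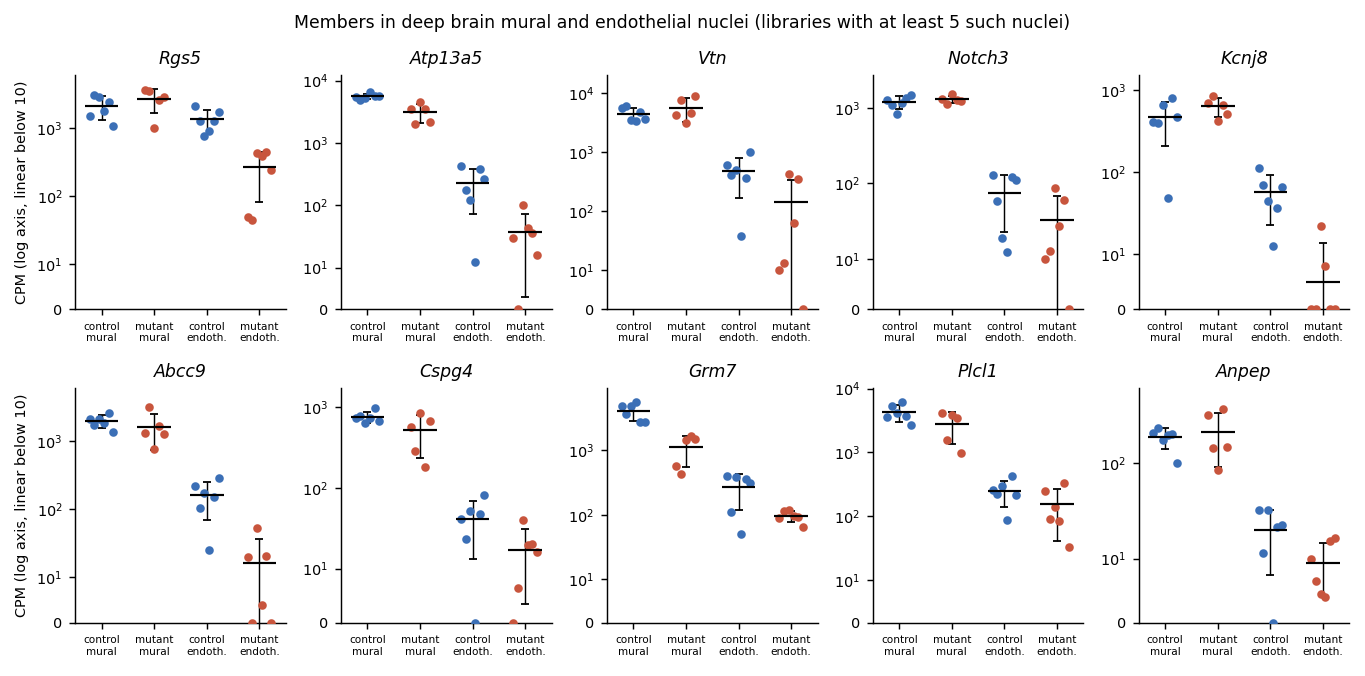
CPM of each of the 10 genes in mural and in endothelial nuclei of the deep brain, with 1 point per library that held at least 5 nuclei of the class (mural, 6 controls and 5 mutants; endothelial, 6 and 6) on an axis that is logarithmic above 10 CPM and linear below, with a bar at the group mean and whiskers of 1 SD. Mutant points of *Grm7* and *Atp13a5* lie below all control points in mural nuclei, and those of *Rgs5* do so in endothelial nuclei.

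How many members were found in one nucleus was counted for 6 of them (*Rgs5*, *Atp13a5*, *Vtn*, *Notch3*, *Kcnj8* and *Abcc9*), chosen after the levels were seen because mural nuclei had their highest level in both regions and no neuronal or glial class was above 75.5 CPM. A higher share in mural nuclei than in glia follows from that choice and is no result, and nuclei of one mouse are not replicates of its genotype, so the counts are given without an interval or a test. In the deep brain 129 of 132 control mural nuclei (97.7%) and 31 of 39 mutant ones (79.5%) held UMIs of at least 3 of the 6. Over mice with at least 5 mural nuclei the share was 97.9% ± 2.38 in controls (SD, n = 6, from 95% to 100%) and 76.3% ± 14.6 in mutants (SD, n = 5, from 60% to 100%), and the ranges overlapped. In OPC, which should lack most of these genes, 3 of 2185 control nuclei did so (0.137%), although their median depth was 5321 UMIs against 1374 in mural nuclei. Among endothelial nuclei 33 of 352 in controls (9.38%) and 11 of 337 in mutants (3.26%) carried at least 3 of the 6, at median depths of 1799.5 and 2132 UMIs. By mouse these shares were 10.0% ± 6.31 in controls (SD, n = 6, from 4.48% to 21.4%) and 2.65% ± 2.32 in mutants (SD, n = 6, from 0% to 5.19%), and the ranges overlapped. Of these nuclei 0 of the 33 in controls and 1 of the 11 in mutants were called doublets, as were 0 of the 129 control and 2 of the 31 mutant mural nuclei with at least 3. With every nucleus thinned to 600 UMIs, which left out none, 115 of the 132 control mural nuclei (87.1%) and 23 of the 39 mutant ones (59.0%) held at least 3, as did 12 control (3.41%) and 3 mutant (0.890%) endothelial nuclei and 1 control OPC (0.0458%).

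Outside the vascular classes, the members were tested between genotypes in neurons, oligodendrocytes, OPC, astrocytes, microglia and fibroblasts. In the deep brain 9 members could be tested in at least 1 class, giving 30 tests, and 0 passed an adjusted p of 0.05 in edgeR, with 6 at an unadjusted p below 0.05. DESeq2 called 2 of them. The background of edgeR calls in the deep brain was 0.380% of genes in neurons, 1.64% in oligodendrocytes, 0.0247% in OPC, 2.89% in astrocytes, 0.0578% in microglia and 0.0137% in fibroblasts. That of DESeq2 calls was 2.65%, 3.65%, 0.0987%, 5.1%, 0.339% and 0.0823% in the same order of classes. *Rgs5* in neurons had 0.815 ± 0.206 CPM in controls and 0.420 ± 0.0859 in mutants (CPM with TMM factors), a log2 difference of -0.95 (SE 0.20, edgeR adjusted p = 0.0606), which DESeq2 called (adjusted p = 0.00502). The edgeR fit with the replicate number as a block called it too, and that fit called 1.01% of genes in neurons. The neurons of all 12 deep brain libraries held 457 UMIs of the gene, and the mean level of *Rgs5* in endothelial nuclei was lower in mutants too (267 against 1359 CPM). Whether free RNA took part in the neuronal value was not tested. *Atp13a5* in astrocytes had 56.6 ± 6.78 CPM in controls and 74.6 ± 10.3 in mutants, a log2 difference of 0.40 (SE 0.10, edgeR adjusted p = 0.0527), which DESeq2 also called (adjusted p = 0.0186). In mural and endothelial nuclei the mean of *Atp13a5* was lower in mutants.

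In the cortex 22 tests over 8 members gave 1 call. *Plcl1* in astrocytes rose from 373 ± 75.9 CPM in controls to 590 ± 104 in mutants, with a log2 difference of 0.67 (SE 0.15, edgeR adjusted p = 0.0137), and all 6 mutants, at 485 CPM or more, lay above all controls, at 477 CPM or less. In astrocytes of the cortex 2.07% of genes were called, in neurons 0.00594%, in oligodendrocytes 1.04%, in microglia 0.142%, and in OPC and fibroblasts 0% (0 genes at edgeR's adjusted p, with 323 and 159 at an unadjusted p below 0.05). In the 5 libraries of higher depth the *Plcl1* difference was 0.84 with an edgeR adjusted p of 0.0694. *Atp13a5* in cortical astrocytes had 52.4 ± 16.8 CPM in controls and 86.5 ± 38.4 in mutants (0.87, SE 0.25, edgeR adjusted p = 0.0728), and in those 5 libraries the difference was 1.44 with an edgeR adjusted p of 0.0202, where 0.421% of genes were called. *Grm7* in oligodendrocytes had 943 ± 216 and 669 ± 242 CPM (-0.49, SE 0.20, edgeR adjusted p = 0.260). It passed the threshold when the replicate number was fitted as a block (edgeR adjusted p = 0.00321), a fit that called 6.11% of genes in these nuclei.

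Whether the effect of genotype differed between regions was fitted with the mouse as a block, in a comparison added after the data were seen. Of 28 tests 0 passed an adjusted p of 0.05 in edgeR, 5 had an unadjusted p below 0.05, and the smallest adjusted p was 0.306 (*Notch3* in neurons). Over all genes this fit called 0.331% in neurons, 0.0764% in astrocytes, 0.022% in oligodendrocytes and 0% in OPC, microglia and fibroblasts.

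Between regions of control mice, 9 of 25 tests over 9 members were called, 7 of them higher in the deep brain. In neurons, where 37.1% of genes were called, *Abcc9* was higher in the deep brain by 1.5 on the log2 scale (SE 0.32, edgeR adjusted p = 0.00253), *Notch3* by 0.54 and *Plcl1* by 0.31, while *Cspg4* was lower, at 0.722 ± 0.138 against 1.48 ± 0.321 CPM (-1.07, SE 0.18, edgeR adjusted p = 0.000494). The neuronal levels of *Abcc9* and *Cspg4* were near the floor. Pooled over genotypes *Abcc9* was at 0.425 CPM in the deep brain and 0.128 CPM in the cortex, with UMIs in 0.313% and 0.145% of neurons. *Cspg4* was at 0.723 and 1.43 CPM, with UMIs in 0.647% and 1.18% of neurons, beside 358 and 531 CPM in OPC. Whether free RNA took part in these neuronal levels was not tested. In OPC, where 9.43% were called, *Cspg4*, their own proteoglycan gene, was lower in the deep brain with 376 ± 34.4 against 572 ± 130 CPM (-0.62, SE 0.12, edgeR adjusted p = 0.000905), while *Plcl1* (0.56) and *Grm7* (0.42) were higher. In astrocytes, where 19.3% were called, *Grm7* had 467 ± 112 CPM in the deep brain and 85.7 ± 19.0 in the cortex, the widest difference among these tests (2.49, SE 0.18, edgeR adjusted p = 2.0e-08). Over both genotypes, however, 23.0% of deep brain and 27.5% of cortical astrocytes held a *Grm7* UMI. Deep brain astrocytes included clusters of 925 and 344 nuclei with medians of 12364 and 14766.5 UMIs, the second led by *Rarb* and *Rgs9*. The part of these clusters in the difference was not tested. *Notch3* had 42.8 ± 6.90 and 23.3 ± 5.03 CPM there (0.83, SE 0.18, edgeR adjusted p = 0.00221). Without the cortical libraries of low depth the calls of *Notch3* (0.35, edgeR adjusted p = 0.234) and *Plcl1* (0.27, edgeR adjusted p = 0.0551) in neurons and of *Grm7* in OPC (0.30, edgeR adjusted p = 0.145) were lost. None of the members tested in oligodendrocytes, microglia or fibroblasts passed, where 6.83%, 2.00% and 0.684% of genes were called. Since both regions came from the same mice, the fit with the mouse as a block also applies, and it called the same 9 and *Grm7* in oligodendrocytes (0.31, edgeR adjusted p = 0.0448), where it called 9.64% of genes.

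**Figure D5:**
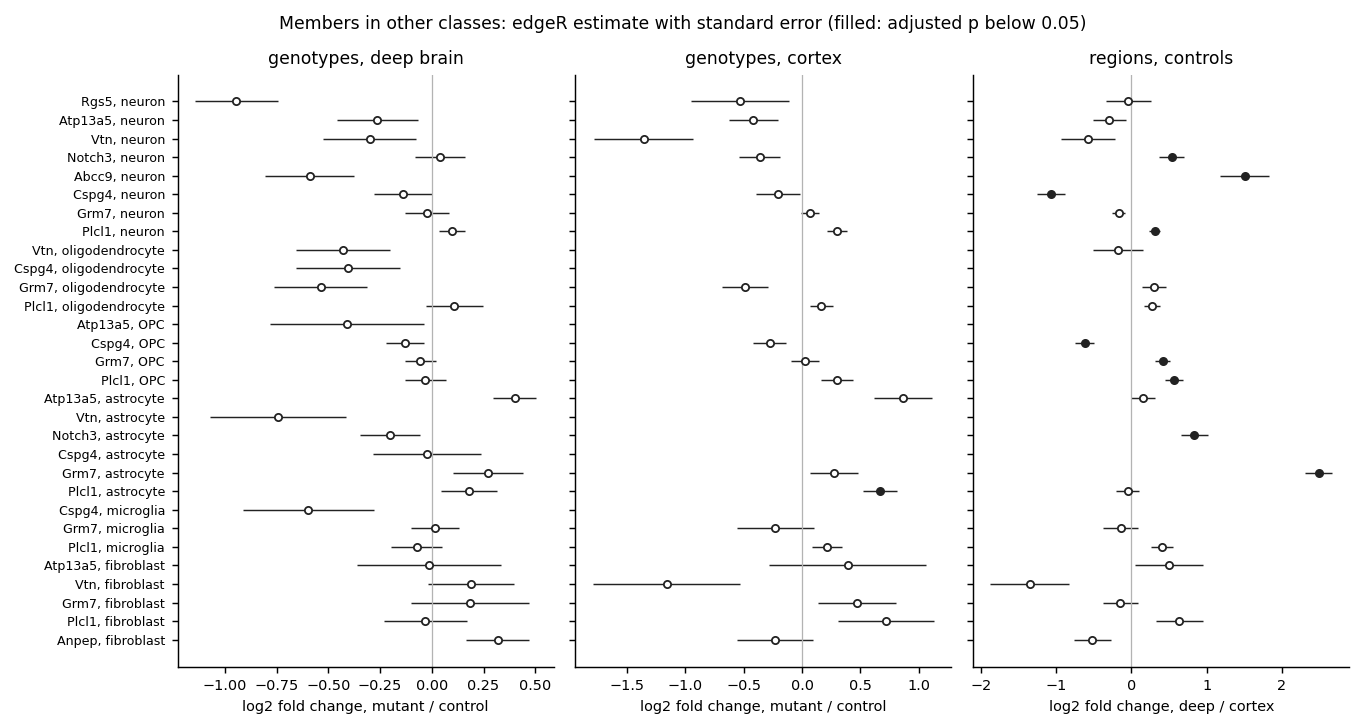
Log2 difference of each member in 6 classes other than mural and endothelial nuclei, between genotypes in the deep brain and the cortex and between regions in controls, with bars of 1 SE from the edgeR fit and filled points for an adjusted p below 0.05. Cortical *Plcl1* in astrocytes is the single call between genotypes, and 9 points are called between regions, with *Grm7* in astrocytes at 2.49. Over both genotypes, 23.0% of deep brain and 27.5% of cortical astrocytes held a *Grm7* UMI.

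The genes whose levels were most like those of each member were sought over 16 points (8 classes in 2 regions, as log2 of CPM + 10), which share libraries. *Kcnj8* was most like *Higd1b* (Pearson's r = 0.999) and *Abcc9* most like *Tbxa2r* (0.994), and each of the pair had the same 2 nearest genes. *Atp13a5* was most like *Pdgfrb* (0.992), *Vtn* like *Nid1* (0.990), *Notch3* like *Hspa2* (0.973) and *Rgs5* like the endothelial adhesion gene *Esam* (0.981). *Anpep* was most like *Bmp5* (0.994), *Cspg4* like *Hapln3* (0.941), *Plcl1* like *Ppfibp2* (0.919) and *Grm7* like *Ncoa7* (0.906). Some relatives of the members had few UMIs in the 171 mural nuclei of the deep brain. The alternative channel genes *Kcnj11* and *Abcc8* had 2 and 0 UMIs, while *Kcnj8* had 136 and *Abcc9* 481. Since genes differ in size, these counts of different genes are not compared as levels. *Grm4*, *Grm6* and *Grm8*, the receptors of the same group as *Grm7*, had 5, 0 and 4 UMIs, and *Plcl2* had 5. *Rgs4*, a further regulator of G protein signaling, had 175 UMIs.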

How the data were processed

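Nuclei of 24 libraries were made into droplet-based 5′ libraries. The authors aligned the reads to mm10 with Cell Ranger 5.0.1, introns included, after bcl2fastq 2.20.0.422 (submitters' processing notes), and deposited UMI counts per gene and barcode, without normalization. Kept nuclei had more than 500 and fewer than 7000 genes and less than 20% mitochondrial UMIs. Counts were scaled to 1000 per nucleus, and 2000 variable genes (scanpy 1.11.5), less those among the 10 members, gave 20 components. Clusters were found with Seurat 5.3.0 at a resolution of 0.01, mixed ones were divided again at 0.1 (vascular nuclei of both regions together), and names came from fixed marker lists. Doublets called by Scrublet (expected rate 0.06, and in 8 libraries without a usable automatic limit the top scores at that rate were taken, which with ties marked 6.49% to 9.04%) were kept.

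Counts were summed per library and class and given as CPM of all UMIs summed, for libraries with at least 5 nuclei of the class. Tests used edgeR 4.0.16 in R 4.3.3 (filterByExpr, TMM factors, quasi-likelihood, Benjamini-Hochberg adjustment over all genes of a fit, threshold 0.05), and CPM beside them carry TMM factors. The fits were tested on simulated data. Numbers of mural nuclei were compared by exact permutation over mice, so p-values measure the spread between mice. Alternatives were DESeq2 1.42.0, RLE size factors, no filter on low counts, a replicate or age block, leaving out single libraries, other clusters, less than 5% mitochondrial UMIs and removal of doublets. The interaction of genotype and region, the comparisons without cortical libraries of low depth, the count with unnamed nuclei of mixed markers and the thinning of nuclei were added after the data were seen. Libraries held 23625232 to 96459036 UMIs, and the limits given for a count of 0 cover counting error only.

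Members and lists were chosen with earlier results of these data known. All 10 members are named, and of each tested list the genes past the threshold or otherwise the 4 with most UMIs. Relatives of the members were not tested, and only some of them are named. Both regions of a mouse come from one animal, so the mouse pairs them, whereas control and mutant mice of numbers 1 to 4 share a replicate number and an age, and those of 5 and 6 match in age crosswise. No litter, batch or day is stated for a number. Correlations of deviations between same-numbered libraries ranged from -0.22 to 0.37 in the deep brain and from -0.16 to 0.75 in the cortex, over 36 combinations of class and number each. In cortical neurons all 6 were above 0.1.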

Additional observations from a re-analysis of the deposited data

Results flagged for a closer look

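Over 108 groups of 6 or 5 libraries, 3 held a library that stood apart from the others of its group by Dixon's criterion, which chance alone meets in about 1 in 20 groups. *Kcnj8* in endothelial nuclei of the deep brain was at 22.1 CPM in mutant 3, with the next mutant at 7.86 CPM. The share of mural nuclei in control cortical libraries was 0.189% in control 5, with the next control at 0.0354%. *Notch3* in cortical neurons was at 4.02 CPM in control 6, the male mouse, with the next control at 2.65 CPM.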

How the results depend on the processing

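In the deep brain the share of mural nuclei and the number per endothelial nucleus kept their direction and stayed past the threshold under all alternatives run, the replicate block (p = 0.0313, exact) among them. In the cortex the share (difference -0.0453 percentage points) ranged from -0.0554 to -0.0175 when single libraries were left out, and the call was lost without controls 1, 2, 4 or 5 or mutants 1, 2, 3 or 4. Under the replicate block it was -0.0453 with p = 0.0625, and without the libraries of low depth -0.0583 with p = 0.600 (exact tests, where 3 against 2 libraries are too few to pass the threshold). The cortical number per endothelial nucleus ranged from -0.272 to -0.136, with -0.223 and p = 0.0625 under the block and -0.245 and p = 0.600 at higher depth (exact tests). With unnamed nuclei of mixed mural and microglial markers counted as mural, the cortical share differed by -0.0547 (p = 0.199) and the number per endothelial nucleus by -0.151 (p = 0.459, exact tests).

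Calls of members between genotypes in other classes of the deep brain, 0 in edgeR, came to 2 with DESeq2 (*Rgs5* in neurons, *Atp13a5* in astrocytes), 1 without the filter on low counts (*Rgs5* in astrocytes) and 1 with the replicate block (*Rgs5* in neurons). In the cortex the 1 call became 2 without the filter, 3 with the replicate block and 3 with the block by age, and at higher depth the 1 call was *Atp13a5* in astrocytes in place of *Plcl1*. Calls over all genes moved too, in cortical oligodendrocytes from 1.04% to 6.11% with the replicate block and 4.64% with the block by age, and in cortical astrocytes from 2.07% to 4.3% and 3.18%. Same-numbered mice of different genotype also share an age for numbers 1 to 4, and of 36 combinations in each region 15 (deep brain) and 20 (cortex) correlated above 0.1. In cortical neurons, where all 6 did, the replicate block called 0 members, as did the fit without it (smallest edgeR adjusted p = 0.119 and 0.610). Between regions 9 calls became 10 with the mouse block and 11 without the filter, and 6 of the 9 remained at higher depth, where *Grm7* in OPC and *Notch3* and *Plcl1* in neurons were lost. Of the gene lists in mural nuclei, the 1 call (*Mrvi1*) became 5 others without the filter (*Trpc4*, *Dlc1*, *Slc6a20a*, *Myh11* and *Acta2*), where the median of all genes moved from -0.02 to -0.62, 0 with the replicate block, 0 with the block by age, 0 with clusters formed with the members and 0 without doublets, and 0 to 2 when single libraries were left out. No called value changed its sign. Among values without a test, the difference of whole cortical libraries (mutant minus control) went from -1.37 to 0.535 CPM at higher depth for *Atp13a5*, and for *Grm7* from -32.6 to 109 CPM at higher depth and to 45.4 CPM over all deposited barcodes. The cause of these changes was not tested.

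Over the shares, ratios and counts of calls, 73 recomputed values stayed as they were by the criteria used, 14 lost a call and 20 moved by over 1.5 times. Over single genes 120 stayed, 17 lost a call and 1 moved by more than 1 SD. Mural nuclei were few (171 and 29), so only 229 genes could be tested in them and none in the cortex.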
